A study of Mus musculus with 48 samples.

Results

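Inhibitory immune checkpoints are receptors and ligands that dampen immune cells, and 9 of their genes are described here in mouse glioma. The receptors are Pdcd1 (PD-1), Ctla4, Lag3, Havcr2 (TIM-3), Tigit and Vsir (VISTA), and the ligands are Cd274 (PD-L1), Pdcd1lg2 (PD-L2) and Lgals9 (galectin-9). The genes were chosen by symbol and not by a measured value, although earlier results of these data were known at the choice. All 9 were among the 20300 genes counted in cells of mixed origin, and 8 were among the 14363 genes counted in CD11b+ cells, where Tigit was not used here.

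Checkpoint receptors appear on T cells after stimulation through the antigen receptor and damp that signal or the costimulatory signal beside it. Their ligands are carried by antigen-presenting cells, other myeloid cells and tumor cells, and interferon-gamma raises PD-L1 through its receptor and Janus kinases. Gliomas are rich in macrophages and resident microglia, and T cells under lasting stimulation can hold several of these receptors at once, a state called exhaustion.

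The study addressed the part played by P-selectin, the adhesion molecule encoded by Selp, in the exchange between glioma cells and the immune cells around them. GL261 mouse glioma cells with a control hairpin (shNC) or a hairpin against Selp (shSELP) had been implanted into the striatum of male C57BL/6 mice aged 6 weeks. Cells of 3 pooled brains per group were sequenced in droplets, which counts transcripts as unique molecular identifiers (UMIs). The host animals carried an intact Selp gene, so only the implanted cells held the hairpin. The mix brought together CD11b+ cells, the remaining CD45+ cells and all other cells in equal amounts, was labelled day 16, and gave 2 shNC and 2 shSELP libraries. The CD11b+ experiment was labelled day 21 and gave 1 shNC library and 1 library labelled shSELP, although the descriptions of 7 of the latter's 8 sequencing entries name the negative control. Nothing states that libraries of a group came from separate animals, so p-values here measure the spread between libraries.

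The mix held 2183 and 2179 kept cells in shNC 1 and shNC 2, and 2190 and 2174 in shSELP 1 and shSELP 2. Their UMIs summed to 22874762, 22546742, 17323095 and 25512125 in that order, which is the order of every set of 4 values below. The CD11b+ libraries held 2731 (shNC) and 2804 (labelled shSELP) kept cells, with 12532788 and 11406051 UMIs. Any pair of the 6 libraries shared between 0 and 3 cell barcodes.

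Selp, the gene the hairpin targets, was barely counted in tumor cells, with 1, 1, 0 and 1 UMIs. Each of these counts is at or under the floor of 3 UMIs used here, so the knockdown could not be checked from these libraries. Over all kept cells Selp had 17, 25, 21 and 21 UMIs, or 0.743, 1.11, 1.21 and 0.823 counts per 10⁶ UMIs (CPM). The groups overlapped in that level. Host endothelial cells held 8, 12, 3 and 7 of the UMIs, or 55.2, 35.0, 1.82 and 11.3 CPM of Selp, lower in both shSELP libraries and not tested.

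The library shSELP 1 stood apart in its cells. It held 348 endothelial cells, against 24 and 44 in shNC 1 and shNC 2 and 84 in shSELP 2. It also held the fewest tumor cells, 86, where the other libraries held 311, 223 and 105, and it had the lowest median depth, 6164 UMIs per cell against 9547, 8051 and 9879.5. Results of the checkpoint genes that change without this library are given both ways. Counts of genes called are given as a range over fits that each left out a library. For other genes named below, among them those of the gene lists, no value without this library is given.

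Cells were sorted into 8 classes by fixed marker panels that hold none of the 9 genes, and every level below is the CPM of UMIs summed over the cells of a class in a library. The classes held 868 CD8 T cells, 465 conventional CD4 T cells, 179 regulatory T cells, 140 NK cells, 417 dendritic cells, 2309 macrophages, 1015 microglia and 725 tumor cells. The panel of T cells summed to 6646, 7118, 7933 and 7454 CPM in CD8 T cells, with its 6 genes found in each library. In dendritic cells the dendritic panel summed to 2577, 3901, 4041 and 4079.5 CPM, led by Ccr7. All 8 genes of the macrophage panel were found in the macrophages of each library. Of the 2309 macrophages, 265 lay in the cluster with the highest level of a neutrophil panel.

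The microglia were less cleanly marked. Their own panel of 9 genes, led by Olfml3, summed to 1136, 1529.8, 2762 and 1752 CPM, while the macrophage panel still reached 1094, 785, 691 and 641 CPM in them, led by Ms4a7. Both shSELP libraries were thus above both shNC libraries in the microglia panel and below them in the macrophage panel. In NK cells Cd3d, Cd3e and Trac were at 0 in each library, and 674, 606, 601 and 647 CPM of the T cell panel came mostly from Trbc1. The gate left out NK cells with at least 2 genes of that panel, so its low values there depend on the gate.

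The first question was where each gene was expressed, and classes were compared over the 4 libraries with edgeR's quasi-likelihood test, with p-values adjusted by Benjamini-Hochberg over all genes and a threshold of 0.05. Among the T cells, 5 of 8 tested members differed between regulatory and conventional CD4 T cells, where 13.2% of all genes did. Only 1 of 8, Ctla4, differed between CD8 and conventional CD4 T cells (12.7% of all genes), and 3 of 8 differed between regulatory and CD8 T cells (13.8%). NK cells differed from CD8 T cells in 4 of 8 members (14%), which became 7 when doublet calls were left out.

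In the contrasts of myeloid and tumor classes, larger shares of all genes passed the test. Dendritic cells differed from macrophages in 5 of 7 tested members, where 48.8% of all genes differed, and microglia from macrophages in 5 of 7 (34.3%). Tumor cells differed from macrophages in 5 of 5 tested members, where 71.1% of all genes did. Members too low in both classes were not tested, so these counts leave out genes that were near 0 on both sides.

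**Figure D1:**
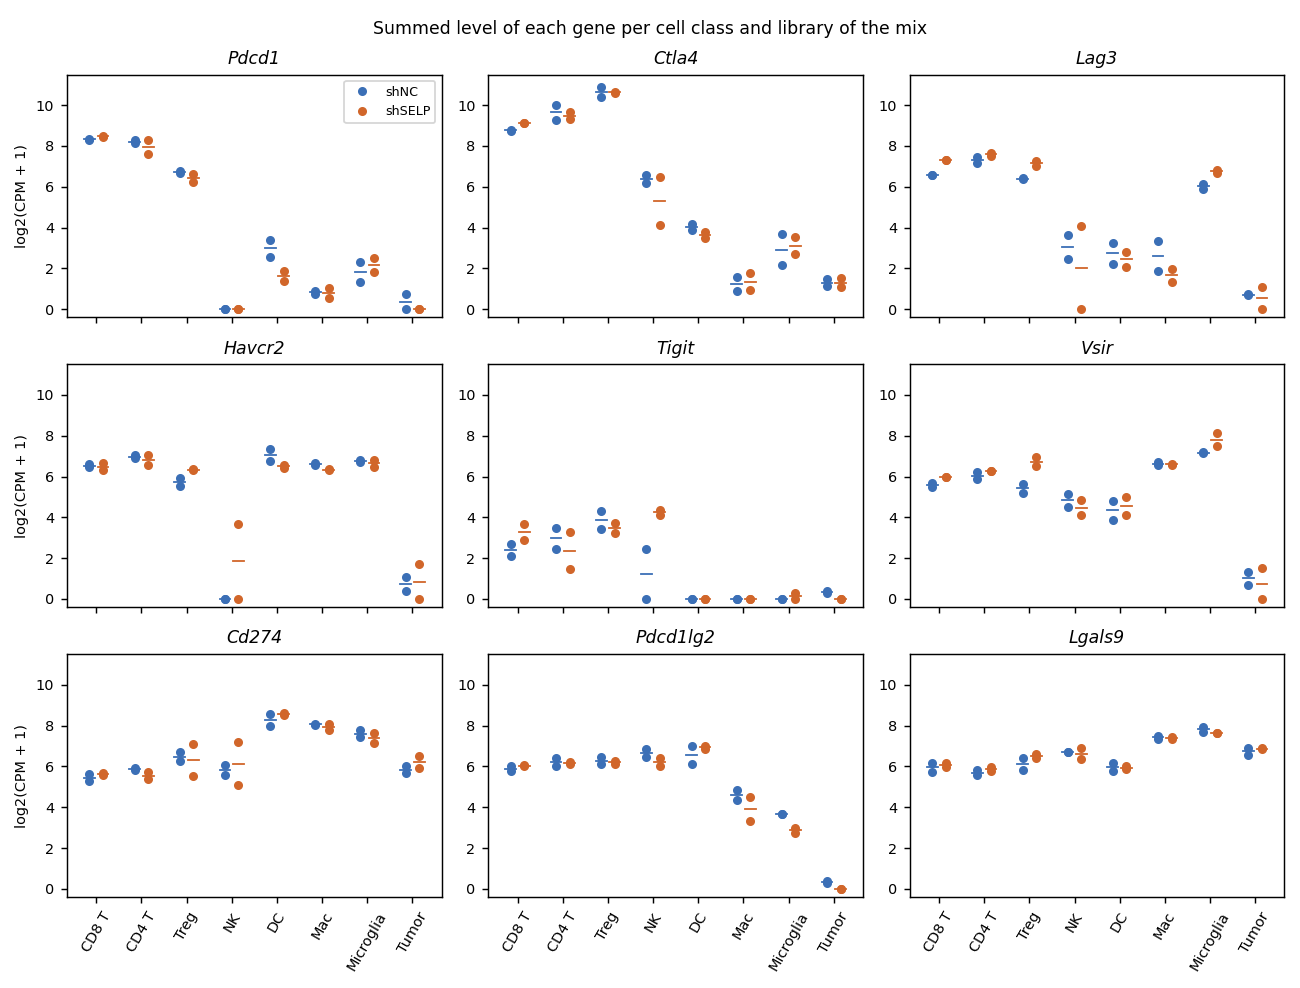
Level of each gene, as log2(CPM + 1) on the vertical axis, in the 8 cell classes of the mix; points are libraries (blue shNC, orange shSELP) and short lines the mean of 2 libraries. Pdcd1 and Ctla4 were highest in T cells, and by the mean Cd274 and Pdcd1lg2 were highest in dendritic cells and Vsir and Lgals9 in microglia.

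Pdcd1 encodes PD-1, the receptor of PD-L1 and PD-L2 that recruits phosphatases to the T cell receptor. Its level in CD8 T cells was 316, 324, 356 and 352 CPM, with a mean of 337 ± 20.3 (SD, 4 libraries). Conventional CD4 T cells followed at 276 ± 55.7 CPM and regulatory T cells at 94.9 ± 14.9 CPM, and these ranges did not overlap. Dendritic cells (4.70 ± 3.51 CPM) and microglia (3.198 ± 1.40 CPM) overlapped each other, and so did macrophages (0.766 ± 0.270 CPM) and tumor cells. NK cells held no Pdcd1 UMI in any library.

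Pdcd1 was lower in regulatory than in conventional CD4 T cells by a log2 fold change of −1.60 ± 0.15 (SE, adjusted p 4.87e-07, 4 of 4 libraries). Against CD8 T cells the difference was −1.94 ± 0.17 (adjusted p 5.39e-06, 4 of 4 libraries). Each was kept in all 13 alternative settings. In NK cells, 0 UMIs against 2423 in CD8 T cells placed Pdcd1 at least 69.8-fold lower, with the floor taken over all libraries. CD8 T cells were above conventional CD4 T cells in Pdcd1 by 0.40 ± 0.14 and missed the threshold (adjusted p 0.0976). It passed without cells holding a C1q UMI (0.41) and with no filter on low counts (0.44), and fell to 0.21 without shSELP 1.

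Ctla4, which competes with CD28 for CD80 and CD86 and is constitutive in regulatory T cells, led in that class. Its level there was 1890.4, 1354, 1603 and 1553 CPM, against 1030.4, 621, 629 and 815 CPM in conventional CD4 T cells and 442, 429.7, 551 and 566 CPM in CD8 T cells. The means of 1599.9 ± 222, 774 ± 193 and 497 ± 71.4 CPM belong to ranges that did not overlap. NK cells (66.7 ± 34.9 CPM), dendritic cells (13.4 ± 2.81 CPM) and microglia (7.87 ± 4.10 CPM) each overlapped the next. Macrophages (1.54 ± 0.774 CPM) and tumor cells (1.48 ± 0.366 CPM) came last and overlapped each other.

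Regulatory T cells exceeded conventional CD4 T cells in Ctla4 by 1.02 ± 0.11 (log2, SE, adjusted p 4.47e-06) and CD8 T cells by 1.56 ± 0.14 (adjusted p 8.58e-06). Both held in 4 of 4 libraries and in all 13 alternatives. CD8 T cells were below conventional CD4 T cells, at −0.52 ± 0.15 (adjusted p 0.0421, 4 of 4 libraries). That call was kept in 8 of 13 alternatives, with adjusted p between 0.000239 and 0.162. It was lost without shNC 1 (−0.32, adjusted p 0.133), without shNC 2 (0.101) and without shSELP 2 (0.162).

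Small amounts of Ctla4 outside T cells also passed the test. Dendritic cells, at 13.6, 17.0, 12.9 and 10.1 CPM, were above macrophages by 2.88 ± 0.41 (log2, SE, adjusted p 3.51e-05, 4 of 4 libraries). Microglia, at 11.98, 3.42, 5.41 and 10.7 CPM, were above macrophages by 2.20 ± 0.26 (adjusted p 6.89e-05, 4 of 4 libraries). In microglia the panel of T cells summed to 9.07, 12.745, 46.7 and 60.3 CPM, with all 6 genes found in each library and none at 0. The part of these T cell transcripts in the Ctla4 of microglia was not tested. In the CD11b+ experiment microglia held no Ctla4 UMI in either library, so this contrast had no counterpart there. The upper limits of the 95% counting intervals were 1.11 CPM in shNC and 1.68 CPM in the library labelled shSELP.

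Lag3, a CD4-like receptor that binds MHC class II and fibrinogen-like protein, was shared by T cells and microglia. Its level was 176 ± 25.3 CPM in conventional CD4 T cells, 125 ± 36.0 in CD8 T cells, 113 ± 35.7 in regulatory T cells and 85.9 ± 25.5 in microglia (mean and SD of 4 libraries). Each of these ranges overlapped the next. All other classes lay below them, with NK cells at 7.95 ± 7.08, dendritic cells at 5.37 ± 2.42 and macrophages at 4.08 ± 3.49 CPM, and these overlapped. Tumor cells were lowest at 0.596 ± 0.460 CPM.

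The contrast between the brain's resident and its recruited myeloid cells was wide for Lag3. Microglia held 58.8, 70.3, 112 and 102 CPM, against 9.23, 2.65, 2.93 and 1.52 CPM in macrophages. The log2 difference was 4.31 ± 0.37 (adjusted p 7.7e-06, 4 of 4 libraries), and it was kept in all 13 alternatives. Among T cells, regulatory cells were below conventional CD4 T cells, at −0.69 ± 0.15 (adjusted p 0.00466, 4 of 4 libraries). That call was lost in thinned cells (−0.33), without cells holding a C1q UMI (−0.31) and with DESeq2 (−0.70), and was kept in 10 of 13 alternatives. The difference of CD8 from conventional CD4 T cells, −0.42 ± 0.13 (adjusted p 0.0653), passed without shSELP 1 (−0.51, adjusted p 0.0168, within 0.0168 to 0.634 over the alternatives). NK cells held 1, 1, 0 and 4 Lag3 UMIs and were below CD8 T cells, at −3.72 ± 0.40 (adjusted p 1.2e-07).

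Havcr2 encodes TIM-3, a receptor of T cells and myeloid cells that binds galectin-9, CEACAM1 and HMGB1. It was found in T cells and myeloid cells alike, with 118 ± 17.5 CPM in conventional CD4 T cells, 113 ± 34.6 in dendritic cells, 104 ± 11.2 in microglia and 90.4 ± 9.56 in CD8 T cells. Macrophages (89.0 ± 10.8 CPM) and regulatory T cells (66.5 ± 17.0 CPM) followed, and each range in this order overlapped the next. NK cells and tumor cells were near 0. NK cells held 0, 0, 0 and 3 UMIs, a ratio to CD8 T cells of 0.0529 (95% counting interval 0.0109 to 0.155).

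Havcr2 passed the test in few contrasts between immune classes. Regulatory T cells were below conventional CD4 T cells, at 45.6, 59.8, 81.6 and 79.2 against 118, 130.3, 93.2 and 130.1 CPM. The log2 difference was −0.89 ± 0.195 (SE, adjusted p 0.00426, 4 of 4 libraries), lost in thinned cells (−0.63) and with DESeq2 (−0.88). Tumor cells were below macrophages, at −7.49 ± 0.31 (adjusted p 5.83e-09, 4 of 4 libraries). Regulatory against CD8 T cells gave −0.59 ± 0.19 (adjusted p 0.0539), which passed without shSELP 1 (−0.73, adjusted p 0.0167, within 0.0165 to 0.463 over the alternatives), and CD8 against conventional CD4 T cells gave −0.28 ± 0.11 (adjusted p 0.132). No difference was called between microglia and macrophages (0.12) or between dendritic cells and macrophages (0.21).

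Tigit, a receptor of T and NK cells for PVR and nectin-2, was at the limit of detection. Its counts were 8, 10, 18 and 10 UMIs in CD8 T cells, 6, 4, 1 and 15 in conventional CD4 T cells, 3, 7, 3 and 4 in regulatory T cells and 0, 1, 1 and 5 in NK cells. The means of 12.3 ± 4.74 CPM in regulatory T cells, 10.1 ± 9.39 in NK cells, 6.80 ± 3.62 in CD8 T cells and 6.27 ± 3.80 in conventional CD4 T cells overlapped one another. Dendritic cells and macrophages held no UMI, and Tigit was too low to be tested between classes.

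Vsir encodes VISTA, a B7-like protein of myeloid cells and resting T cells that acts as ligand and as receptor. It led in microglia, at 141, 146, 276 and 181 CPM, and macrophages followed at 104, 92.3, 94.3 and 96.7 CPM. These ranges did not overlap, and the log2 difference was 0.78 ± 0.14 (SE, adjusted p 0.0011, 4 of 4 libraries), kept in all 13 alternatives. Macrophages (96.9 ± 5.25 CPM), regulatory T cells (74.2 ± 39.4), conventional CD4 T cells (70.5 ± 8.92) and CD8 T cells (54.6 ± 9.44) each overlapped the next. NK cells (25.2 ± 7.93 CPM) and dendritic cells (22.0 ± 8.23 CPM) lay lower and overlapped, and tumor cells were near 0 at 0.993 ± 0.844 CPM.

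Dendritic cells, at 27.2, 13.8, 30.7 and 16.2 CPM of Vsir, were below macrophages, at −2.34 ± 0.18 (log2, SE, adjusted p 5.2e-08, 4 of 4 libraries). Tumor cells were below macrophages, at −7.15 ± 0.27 (adjusted p 3.56e-09, 4 of 4 libraries). Each of these was kept in all 13 alternatives.

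Cd274 encodes PD-L1, the PD-1 ligand that interferon-gamma induces. Its level was 252, 381, 391 and 370.4 CPM in dendritic cells, 260.1, 269.7, 218 and 272 in macrophages and 218, 173, 139 and 196 in microglia. Dendritic cells (348 ± 64.7 CPM) and macrophages (255 ± 25.0 CPM) overlapped, while microglia (181 ± 33.9 CPM) lay below macrophages in 4 of 4 libraries. Then came regulatory T cells (90.2 ± 39.6 CPM), NK cells (72.8 ± 50.7), tumor cells (66.3 ± 17.4), conventional CD4 T cells (51.7 ± 7.69) and CD8 T cells (46.2 ± 5.93), each overlapping the next. The tumor cells themselves held 49.9, 64.1, 60.5 and 90.8 CPM.

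Tumor cells were below macrophages in Cd274, at −2.73 ± 0.15 (log2, SE, adjusted p 3.85e-08, 4 of 4 libraries), and microglia were below macrophages, at −0.61 ± 0.10 (adjusted p 0.000717, 4 of 4 libraries). Both were kept in all 13 alternatives. Dendritic cells were above macrophages by 0.33 ± 0.12 (adjusted p 0.0347), in 3 of 4 libraries, shNC 1 being the exception. That call was kept in 6 of 13 alternatives (adjusted p between 0.00135 and 0.265) and was lost without shSELP 1 (0.18, adjusted p 0.265), without shNC 2 and without shSELP 2.

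Regulatory T cells had the highest mean Cd274 among T cells, at 75.0, 103, 44.9 and 138 CPM, against 55.6, 58.9, 41.2 and 51.2 in conventional CD4 T cells and 48.9, 37.5, 47.5 and 50.8 in CD8 T cells. They exceeded conventional CD4 T cells by 0.81 ± 0.21 (log2, SE, adjusted p 0.0136, 4 of 4 libraries), kept in 6 of 13 alternatives with adjusted p between 0.00426 and 0.297. Without shSELP 2, whose regulatory T cells were highest, the difference was 0.50 (adjusted p 0.286). Against CD8 T cells it was 0.85 ± 0.23 (adjusted p 0.0272, 3 of 4 libraries, shSELP 1 being the exception), kept in 6 of 13 alternatives with adjusted p between 0.00213 and 0.303. It was lost without shNC 2 (0.69, adjusted p 0.175) and without shSELP 2 (0.64, adjusted p 0.248).

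Pdcd1lg2 encodes PD-L2, the other PD-1 ligand, best known on dendritic cells. Its level there was 68.0, 125, 116 and 127 CPM (mean 109 ± 27.8), and NK cells (88.1 ± 21.2), regulatory T cells (74.9 ± 8.54), conventional CD4 T cells (72.8 ± 9.14) and CD8 T cells (61.5 ± 5.49) each overlapped the next. Macrophages (19.3 ± 7.66 CPM) and microglia (8.94 ± 3.07 CPM) were lower and overlapped. Tumor cells held 1, 1, 0 and 0 UMIs, a ratio to macrophages of 0.00991 (95% counting interval 0.0012 to 0.036).

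The test placed Pdcd1lg2 higher in dendritic cells than in macrophages by 2.37 ± 0.205 (log2, SE, adjusted p 2e-07) and lower in microglia than in macrophages, at −1.19 ± 0.18 (adjusted p 0.00039). Both differences were seen in 4 of 4 libraries. Among the 8 classes, both ligands of PD-1 were highest in dendritic cells by the mean of 4 libraries. In shNC 1, however, Cd274 was higher in macrophages and Pdcd1lg2 higher in NK cells and regulatory T cells. The 51 neutrophils, which lie outside the 8 classes, held 436 ± 390 CPM of Cd274 from 53 UMIs and 13.8 ± 27.6 CPM of Pdcd1lg2.

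Lgals9 encodes galectin-9, a lectin that binds TIM-3 and other glycoproteins. It led in microglia (207, 245, 199.8 and 195 CPM; mean 212 ± 22.5), with macrophages next at 169 ± 8.36 CPM and no overlap between them, although the test did not call that difference (0.21, adjusted p 0.0912). The difference passed in 3 of 13 alternatives, among them the fit without shSELP 1 (0.28, adjusted p 0.0449, within 0.0295 to 0.428 over the alternatives). Tumor cells (112 ± 11.97 CPM), NK cells (101 ± 15.3), regulatory T cells (80.2 ± 17.8), CD8 T cells (63.7 ± 8.63), dendritic cells (61.4 ± 7.18) and conventional CD4 T cells (54.2 ± 6.02) each overlapped the next. Of the 3 ligands, Lgals9 and Cd274 were the ones found in tumor cells.

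In tumor cells Lgals9 stood at 94.4, 120.3, 114 and 119 CPM, below macrophages, at −1.34 ± 0.12 (log2, SE, adjusted p 2.25e-06, 4 of 4 libraries). Dendritic cells, at 54.4, 70.0, 64.5 and 56.7 CPM, were below macrophages, at −1.57 ± 0.11 (adjusted p 2.49e-08, 4 of 4 libraries). Each was kept in all 13 alternatives. Regulatory T cells exceeded conventional CD4 T cells by 0.51 ± 0.20 and missed the threshold (adjusted p 0.108).

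NK cells, which lack the T cell receptor, were set against CD8 T cells as the other cytotoxic class. Ctla4 was lower in NK cells, at 92.9, 70.8, 16.2 and 86.7 CPM (log2 difference −2.77 ± 0.25, adjusted p 4.79e-09, 4 of 4 libraries), in all 12 alternatives. Vsir, at 34.8, 22.1, 16.2 and 27.6 CPM, was lower in 4 of 4 libraries without passing (−1.10 ± 0.38, adjusted p 0.0541), and it passed without shNC 1 (−1.28, adjusted p 0.0344, within 0.0214 to 0.249 over the alternatives). Both receptors were thus below CD8 T cells in each library.

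No ligand passed the test between these classes. Lgals9, at 105, 102, 81.2 and 118 CPM in NK cells, was higher in 4 of 4 libraries without passing (0.71 ± 0.25, adjusted p 0.0558), and it passed without shSELP 1 (0.81, adjusted p 0.0396, within 0.0207 to 0.357 over the alternatives). Cd274 gave 0.83 ± 0.32 (adjusted p 0.0858) and was higher in NK cells in 2 of 4 libraries, shNC 2 and shSELP 2, with a difference of 0.30 (adjusted p 0.797, within 0.0225 to 0.933 over the alternatives) without shSELP 2. It passed without shNC 1 (0.98) and without shSELP 1 (1.01).

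Dendritic cells were further divided by marker genes in a split chosen after seeing the data. The 241 cells with Ccr7 or Fscn1, marks of mature migrating dendritic cells, held 504 ± 120.2 CPM of Cd274 and 137 ± 40.3 CPM of Pdcd1lg2. The 58 cells with Xcr1 or Clec9a, marks of cross-presenting dendritic cells, held 126 ± 27.7 and 71.0 ± 25.4 CPM of these ligands. Havcr2 ran the other way, with 44.5 ± 16.7 CPM in the former and 211 ± 32.6 CPM in the latter. No test was made of these subsets.

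The number of cells behind a level is shown by shares of cells with a UMI, taken after each cell was thinned to 2000 UMIs. Pdcd1 was found in 44.8 ± 6.19% of CD8 T cells (SD, 4 libraries, and 76.1 ± 3.56% without thinning), against 0.0847 ± 0.169% of tumor cells (0.161 ± 0.322% without thinning), which should lack it. Median depth was 5028.5 to 8979 UMIs per cell in CD8 T cells and 5331 to 15974 in tumor cells. Ctla4 was found in 82.6 ± 8.28% of regulatory T cells (93.2 ± 3.71% without thinning), against 0.760 ± 1.305% of tumor cells (1.75 ± 0.578%). Regulatory T cells had median depths of 4002 to 6917 UMIs. Both shares were far above those in tumor cells. Tumor cells with a UMI of Ptprc, the gene of CD45, had been left out by the gate, so their shares can understate free RNA.

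Lag3 was found in 23.8 ± 3.49% of CD8 T cells (50.4 ± 5.22% without thinning) and 15.7 ± 5.48% of microglia (45.7 ± 8.51%), against 0.726 ± 0.535% of tumor cells (0.703 ± 0.470%). Vsir was found in 31.4 ± 9.56% of microglia (75.3 ± 7.32%) against 0.169 ± 0.339% of tumor cells (1.29 ± 1.05%). Microglia had median depths of 8451 to 15763 UMIs. Cd274 was found in 47.5 ± 9.48% of dendritic cells (80.4 ± 6.42%), 39.0 ± 3.998% of macrophages (81.9 ± 6.76%) and 9.23 ± 1.47% of tumor cells (33.5 ± 6.87%). CD8 T cells, with 8.36 ± 0.463% (24.9 ± 6.37%), gave the lowest share of Cd274 among the classes in thinned cells, and NK cells, with 20.8 ± 11.1%, the lowest without thinning. Median depths were 6369 to 9135 UMIs in dendritic cells and 9409 to 16076 in macrophages. The part of free RNA in the Cd274 share of tumor cells was not tested.

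Several receptors often lay in the same T cell. Of 842 thinned CD8 T cells, 18.9% held none of Pdcd1, Ctla4, Lag3, Havcr2 and Tigit, 39.4% held 1, 27.8% held 2 and 13.9% held 3 or more. By library, 25 of 243, 25 of 210, 43 of 242 and 24 of 147 cells held 3 or more, so both shSELP libraries had the larger shares. Of 125 NK cells 90.4% held none, and of 652 tumor cells 98.6% held none. Among CD8 T cells, Lag3 was found in 27.7% of the 375 with a Pdcd1 UMI (exact 95% interval 23.3 to 32.6) and in 20.6% of the 467 without (17.0 to 24.5), with intervals that pool the cells of 4 libraries and cover counting error only. Ctla4 was found in 56.5% (51.3 to 61.6) and 53.1% (48.5 to 57.7) of these cells and Havcr2 in 16.0% (12.4 to 20.1) and 13.5% (10.5 to 16.9), and the intervals overlapped for each of the 3 receptors. For Lag3 the order was the same in shNC 1, shSELP 1 and shSELP 2 and opposite in shNC 2, where 13 of 89 cells with Pdcd1 and 28 of 121 without held Lag3.

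The next question was whether any gene differed between shSELP and shNC tumors within a class. Of the 9 members, 1 passed the test in 1 class, Lag3 in microglia. With 2 libraries against 2, an exact two-sided permutation test could not go below p 0.333, so the calls rest on edgeR's pooling of spread over genes.

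In CD8 T cells the receptors Lag3, Ctla4 and Vsir were higher in the shSELP libraries, and none passed the test. Lag3 stood at 93.1, 95.4, 156 and 157 CPM, Ctla4 at 442, 429.7, 551 and 566 CPM and Vsir at 43.8, 49.6, 62.04 and 63.0 CPM. In each, both shSELP libraries lay above both shNC libraries, as groups did without overlap, in either direction, in 41.8% of all genes tested in CD8 T cells. The log2 fold changes of shSELP against shNC were 0.77 ± 0.14 for Lag3 (SE, unadjusted p 0.000498, adjusted p 0.395), 0.40 ± 0.14 for Ctla4 (adjusted p 0.486) and 0.46 ± 0.19 for Vsir (adjusted p 0.538). Pdcd1 (0.19 ± 0.15) and Tigit (1.11 ± 0.51) were also higher in both shSELP libraries and failed the test, while Havcr2 and the ligands overlapped.

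No member of 9 tested in CD8 T cells passed edgeR's threshold, where 0% of 8359 genes did, while DESeq2 called 12 genes and an unadjusted p under 0.05 was given to 3 members and 753 genes. Lag3 passed in 4 of 13 alternatives (adjusted p between 0.00531 and 0.472), among them CD8 T cells without a C1q UMI (0.83, adjusted p 0.0331) and the fit without shNC 2 (0.82, adjusted p 0.0179). The fold change of Vsir was −0.014 when cells were thinned to equal depth. Median depth was 7220.5, 6486, 5028.5 and 8979 UMIs per CD8 T cell. The 9 abundant myeloid transcripts, led by Apoe or Cst3 and all found in each library, summed to 3508, 1713, 3615 and 2120 CPM in CD8 T cells, and their part in these values was not tested.

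In conventional CD4 T cells no difference between the groups passed the test. Lag3 stood at 175, 143, 183 and 204 CPM and Vsir at 57.2, 73.7, 75.3 and 76.0 CPM, higher in both shSELP libraries, and Cd274 was lower in both, where groups did not overlap in 32.4% of all genes tested. No member of 8 tested passed edgeR's threshold, where 0% of 6574 genes did, while DESeq2 called 0 genes and an unadjusted p under 0.05 was given to 0 members and 252 genes. The difference between CD8 and conventional CD4 T cells in their response was fitted as an interaction. Again no member of 9 was called by edgeR, where 0% of 8937 genes were, while DESeq2 called 0 genes and an unadjusted p under 0.05 was given to 0 members and 283 genes.

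In regulatory T cells Lag3 and Vsir were again higher in the shSELP libraries, and neither passed the test. Lag3 stood at 81.5, 84.3, 130.5 and 154 CPM and Vsir at 35.9, 48.9, 122 and 89.6 CPM. Both shSELP libraries were above both shNC libraries in each, as they were in Havcr2, and in this class 33.5% of all genes had groups that did not overlap. The log2 fold changes were 0.78 ± 0.26 for Lag3 and 1.25 ± 0.33 for Vsir (SE, adjusted p 0.993 each), and Vsir turned to −0.19 in thinned cells. No member of 8 tested was called by edgeR, where 0% of 4389 genes were, while DESeq2 called 0 genes and an unadjusted p under 0.05 was given to 2 members and 179 genes. The class held 51, 46, 31 and 51 cells, so these levels rest on 11 to 74 UMIs.

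In NK cells the levels that could be compared were those of Cd274, Lgals9, Pdcd1lg2 and Ctla4. Cd274 stood at 46.5, 66.4, 32.5 and 146 CPM, with shSELP 2 high and the groups overlapping. Pdcd1lg2, at 116, 88.5, 64.9 and 82.8 CPM, was lower in both shSELP libraries, where groups did not overlap in 33.2% of all genes tested. No member of 4 tested passed edgeR's threshold, where 0% of 2297 genes did, while DESeq2 called 0 genes and an unadjusted p under 0.05 was given to 0 members and 86 genes. The class held 27, 55, 19 and 39 cells.

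Dendritic cells of shSELP tumors had less Havcr2, though not past the test, at 163 and 109 CPM in shNC and 95.2 and 85.7 CPM in shSELP. Neither shSELP value reached an shNC value, with shNC 1 alone far above the rest. In this class 35.4% of all genes tested had groups that did not overlap. The log2 fold change was −0.60 ± 0.24 (SE, adjusted p 0.860) and fell to −0.27 without shNC 1. Cells with Xcr1 or Clec9a, the subset higher in Havcr2, were 18 of 85 and 18 of 119 dendritic cells in shNC and 11 of 75 and 11 of 138 in shSELP, and their part in the difference was not tested. Without shNC 2 Havcr2 passed the test (−0.89, adjusted p 0.00512), with adjusted p between 0.00512 and 0.999869 over the alternatives, and Pdcd1lg2 passed there too. No member of 6 tested was called by edgeR, where 0.0462% of genes were, while DESeq2 called 6 genes and an unadjusted p under 0.05 was given to 1 member and 366 genes.

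The 3 genes called in dendritic cells were C1qa, C1qb and C1qc, complement genes of macrophages and microglia. C1qa had a log2 fold change of −2.22 ± 0.23 (SE, adjusted p 0.0067; lower in 2 of 2 shSELP libraries). Whether these transcripts have a part in the Havcr2 level was not tested. The abundant myeloid transcripts together, led by Cst3, summed to 31012, 26769, 26965 and 24968 CPM in dendritic cells. Cst3 was itself higher in dendritic cells than in macrophages (log2 difference 3.55), so this sum does not measure transcripts of macrophages.

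Macrophages showed a low Lag3 level at 9.23 CPM in shNC 1 and 2.65, 2.93 and 1.52 CPM in the others. The log2 fold change of −1.51 ± 0.61 (SE, adjusted p 0.397) rested on shNC 1 alone, since it was −0.27 without that library, and the groups overlapped. It passed with no filter on low counts (−1.51, adjusted p 0.00117, within 0.00117 to 0.957 over the alternatives). Havcr2, at 93.3, 102, 77.9 and 82.9 CPM, was lower in both shSELP libraries and was not called, where groups did not overlap in 43.4% of all genes tested. Cd274, Vsir and Lgals9 overlapped between groups. No member of 7 tested passed edgeR's threshold, where 0.212% of genes did, while DESeq2 called 81 genes and an unadjusted p under 0.05 was given to 1 member and 1183 genes. Without shSELP 2 Pdcd1lg2 passed the test in macrophages.

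In microglia the receptor Lag3 was higher in shSELP tumors. Its level of 58.8 and 70.3 CPM in shNC stood against 112 and 102 CPM in shSELP, from 162, 226, 457 and 278 UMIs. Both shSELP libraries lay well above both shNC libraries, and shSELP 1 was highest. In 51.1% of all genes tested in microglia the groups likewise did not overlap, in either direction. The log2 fold change was 0.68 ± 0.15 (SE, unadjusted p 0.000981, adjusted p 0.0461; higher in 2 of 2 shSELP libraries). Lag3 was the 1 member called of 8 tested, where 2.37% of all genes were. An unadjusted p under 0.05 was given to 3 members and 1895 genes (19.9%).

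The call of Lag3 in microglia was kept in 4 of 14 alternatives, with adjusted p between 0.00438 and 0.880. It was lost without shSELP 1 (0.63, adjusted p 0.143) and without shNC 1 (0.59, adjusted p 0.149), and DESeq2 gave 0.68 with adjusted p 0.120. The fold change fell to 0.14 (adjusted p 0.725) when the 260 microglia outside the clusters of their lineage were left out. The T cell panel, whose cells also hold Lag3, summed to 9.07, 12.745, 46.7 and 60.3 CPM in microglia, higher in both shSELP libraries, with its 6 genes found in each library and Trbc2 or Trbc1 the most abundant. The part of these T cell transcripts in the Lag3 level was not tested.

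In the same cells Vsir was higher and Pdcd1lg2 lower in the shSELP libraries, and neither passed the test. Groups did not overlap in 51.1% of all genes tested in microglia. Vsir stood at 141, 146, 276 and 181 CPM, higher in both shSELP libraries and highest in shSELP 1, with a log2 fold change of 0.62 ± 0.18 (SE, adjusted p 0.107). Without shSELP 1 it was 0.31, and without shSELP 2 it was 0.86 and passed the test (adjusted p 0.0145, within a range of 0.00548 to 0.954 over the alternatives). Pdcd1lg2 had 32, 37, 23 and 19 UMIs, or 11.6, 11.502, 5.65 and 6.99 CPM, lower in both shSELP libraries (−0.94 ± 0.30, adjusted p 0.129). It passed in 1 of 11 alternatives, without the highest doublet scores (−1.61, adjusted p 0.0387, within 0.0387 to 0.658), and was −0.45 in the clusters other than cluster 10. Cd274 and Havcr2 overlapped between groups, and Lgals9 was lower in both shSELP libraries (−0.24) and was not called.

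**Figure D2:**
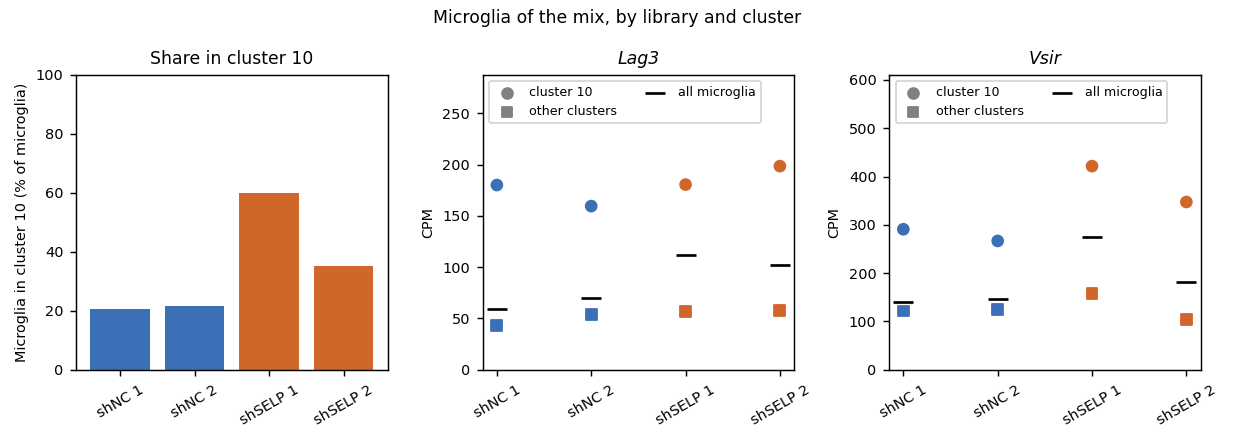
Share of each library's microglia in the cluster with the highest microglia panel level (cluster 10; bars, %), and CPM of Lag3 and Vsir in cluster 10 (circles), in other clusters (squares) and in all microglia (dashes), for 2 shNC and 2 shSELP libraries. Lag3 was at 159.6 to 199 CPM in cluster 10 and at 43.1 to 57.6 CPM in the other clusters.

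The make-up of the microglia differed between libraries. Cluster 10, where the microglia panel was highest, held 44 of 215, 45 of 209, 225 of 375 and 76 of 216 microglia. These are 20.5% (exact 95% interval 15.3 to 26.5), 21.5% (16.2 to 27.7), 60% (54.8 to 65.0) and 35.2% (28.8 to 41.95). The share was larger in both shSELP libraries, which differed widely from each other, and was largest in shSELP 1, the library that stood apart. The intervals cover counting error only, and the difference between the groups was not tested.

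Within cluster 10 Lag3 stood at 180.2, 159.6, 180.6 and 199 CPM, and in the other clusters at 43.1, 54.0, 57.0 and 57.6 CPM. Both shSELP libraries were above both shNC libraries in each set, by a narrow margin that shNC 1 and shSELP 1 nearly closed in cluster 10. The log2 fold change was 0.13 (adjusted p 0.880) in cluster 10 and 0.20 (adjusted p 0.739) in the other clusters, in fits chosen after seeing the data. The clusters were drawn from variable genes without leaving the members out, so levels by cluster are a description. Vsir stood at 291, 267, 422 and 347 CPM in cluster 10 and at 121, 125, 157 and 104 CPM outside it, with fold changes of 0.44 and 0.05. Cd274 was lower in cluster 10 (161, 133, 79.6 and 103 CPM) than outside it (226, 180.0, 186 and 238 CPM) in each library. The difference of Lag3 over all microglia was therefore larger than that within either set of clusters.

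The difference between microglia and macrophages in their response was fitted as an interaction. Lag3 gave 2.17 ± 0.53 (log2, SE, adjusted p 0.0680), Vsir 0.54 ± 0.19 (adjusted p 0.188) and Lgals9 −0.29 ± 0.13 (adjusted p 0.321). No member of 8 passed edgeR's threshold, where 1.52% of genes did, while DESeq2 called 49 genes and an unadjusted p under 0.05 was given to 3 members and 1511 genes. The Lag3 interaction passed without shNC 2 (2.92) and without shSELP 1 (2.51, adjusted p 0.0466) and was 0.93 without shNC 1, whose macrophages held most Lag3. Its adjusted p lay between 4.67e-14 and 0.491 over the alternatives. The Vsir interaction passed without shNC 2 (0.64) and without shSELP 2 (0.87), was 0.25 without shSELP 1, and had an adjusted p between 0.0144 and 0.688.

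Tumor cells gave values for the ligands alone. Cd274 stood at 49.9, 64.1, 60.5 and 90.8 CPM, highest in shSELP 2, with a log2 fold change of 0.36 ± 0.24 (SE). Lgals9 gave 0.08 ± 0.19, and both overlapped between groups. No member of 2 tested was called by edgeR, where 2.05% of genes were, while DESeq2 called 171 genes and an unadjusted p under 0.05 was given to 0 members and 1751 genes. The abundant myeloid transcripts, led by Cst3, summed to 775, 1007, 2243 and 2129 CPM in tumor cells, higher in both shSELP libraries. The median log2 fold change of these 9 transcripts was 0.20, and Apoe (2.20) was the only call among them. Their part in the Cd274 level was not tested.

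The CD11b+ libraries give the same genes at a later day by their labels, which the study's methods do not give, with 1 library a side and so no replicate and no test, and their intervals cover counting error only. In macrophages (1120 and 1451 cells) Cd274 stood at 168 CPM in shNC and 131 CPM in the library labelled shSELP, a ratio of 0.780 (95% counting interval 0.707 to 0.861). Havcr2 stood at 109.7 and 78.1 CPM, a ratio of 0.712 (0.628 to 0.808). Vsir went the other way, at 115 and 141 CPM, a ratio of 1.22 (1.10 to 1.36). Lgals9 (ratio 1.05, 0.947 to 1.17) and Pdcd1lg2 (1.15, 0.788 to 1.69) had intervals that held 1, and Ctla4 had 0 UMIs in both libraries. Lag3 had a ratio of 0.579 with an interval that just held 1 (0.328 to 1.004), and with TMM scaling it was 0.545 (0.309 to 0.946).

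In CD11b+ microglia (542 and 394 cells) Cd274 was again lower in the library labelled shSELP, at 130.2 and 101 CPM (ratio 0.772, 0.654 to 0.910). Lag3 stood at 52.8 and 50.0 CPM (ratio 0.948, 0.740 to 1.21) and Vsir at 139 and 151 CPM (ratio 1.08, 0.938 to 1.25). The higher Lag3 of shSELP microglia in the mix thus had no counterpart beyond counting error here. Lgals9 was lower, at 179 and 149 CPM (ratio 0.833, 0.726 to 0.955), although under the stricter gate its interval held 1 (0.863, 0.719 to 1.03). Both experiments placed Lag3 higher in microglia than in macrophages, where CD11b+ macrophages held 6.93 and 4.01 CPM. In dendritic cells (46 and 50 cells) Cd274 had 44 and 40 UMIs, a ratio of 0.869 (0.552 to 1.37). Havcr2 had 5 and 14 UMIs there, a ratio of 2.68 (0.911 to 9.498), above 1 where the mix had the shSELP libraries lower.

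**Figure D3:**
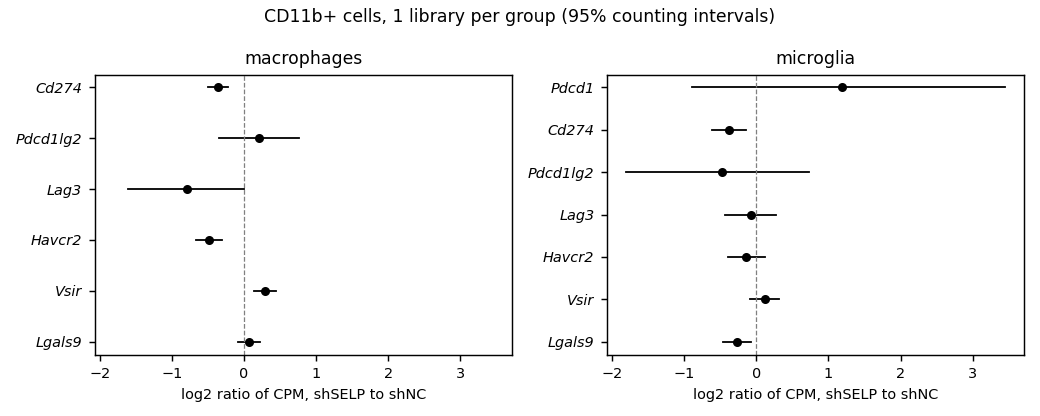
Log2 ratio of CPM in the CD11b+ library labelled shSELP to that in the shNC library, with 95% counting intervals, in macrophages and microglia. Cd274 lay below 0 in both classes and Vsir lay above 0 in macrophages.

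Genes that work with the 9 members were described by lists. The binding partners hold genes of counter-receptors and competitors (Pvr, Nectin2, Cd226, Cd96, Cd80, Cd86, Cd28, Lgals3, Fgl1, H2-Aa, H2-Ab1, H2-Eb1, Ceacam1, Hmgb1, Selplg, Igsf11 and Rgmb). The exhaustion genes hold regulators and surface marks of that state (Tox, Entpd1, Nr4a1, Nr4a2, Nr4a3, Tcf7, Slamf6, Eomes, Tbx21, Batf, Irf4, Prdm1, Cd160, Cd244, Btla, Cd200 and Klrg1). The route from interferon-gamma to PD-L1 holds 9 genes, among them Ifng, Ifngr1, Ifngr2, Jak1, Jak2, Stat3, Irf1 and Socs1. The abundant myeloid transcripts are Lyz2, C1qa, C1qb, C1qc, Apoe, Cst3, Ctss, Tyrobp and Fcer1g.

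In microglia, shSELP against shNC, 2 of 12 tested binding partners were called, where 2.37% of all genes were. Selplg, whose product PSGL-1 binds P-selectin and VISTA, stood at 228, 267, 567 and 379 CPM and was higher in shSELP (0.88 ± 0.18, log2 and SE; adjusted p 0.0408, 2 of 2 libraries). Lgals3, a galectin that binds LAG-3, stood at 1564, 1668, 914 and 962 CPM and was lower (−0.84 ± 0.12, adjusted p 0.0136, 2 of 2 libraries). The share of microglia in cluster 10, larger in both shSELP libraries, moved with these genes, and its part in them was not tested. The median fold change of the list was −0.18 beside 0.00 over all genes.

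The other lists in microglia gave 1 call each or none, beside the same 2.37% of all genes. Ifngr1, a chain of the interferon-gamma receptor, was higher at 117, 118, 218 and 195 CPM (0.76 ± 0.14, log2 and SE; adjusted p 0.0303, 2 of 2 libraries), as 1 of 9 genes of the route to PD-L1 with a list median of 0.09. Cd244, a receptor of the SLAM family, was lower at 25.0, 16.8, 9.59 and 7.35 CPM (−1.32 ± 0.29, adjusted p 0.0484, 2 of 2 libraries), as 1 of 8 exhaustion genes with a list median of 0.12. Of the 9 abundant myeloid transcripts 2 had an unadjusted p under 0.05, as did 19.9% of all genes. None of the 9 passed edgeR's adjusted threshold, and their median was −0.15. The interaction of microglia with macrophages called 4 of 12 binding partners (1.52% of all genes), Selplg higher (0.92 ± 0.19) and H2-Ab1 (−0.86), H2-Eb1 (−0.74) and Lgals3 (−0.59) lower, with a list median of −0.41 beside −0.01.

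In the other classes few genes of the lists were called between the groups. In CD8 T cells edgeR called 0 of 12 binding partners, 15 exhaustion genes, 9 route genes and 9 myeloid transcripts. Of these, 3, 3, 1 and 1 had an unadjusted p under 0.05, as did 9.01% of all genes. Their medians were 0.25, −0.16, 0.20 and −0.02 beside 0.01 over all genes. The medians of the first 3 lists were −0.08, −0.21 and −0.06 in conventional CD4 T cells (all genes 0.00), and −0.38, 0.46 and 0.14 in regulatory T cells (all genes −0.02). They were 0.17, 0.05 and 0.05 in NK cells (all genes −0.01), 0.03, −0.10 and 0.17 in dendritic cells (0.00), 0.10, 0.15 and 0.05 in macrophages (0.00) and 0.10, −0.71 and 0.00 in tumor cells (−0.01). The abundant myeloid transcripts had medians of −0.21, 0.08, −0.28, −0.22, 0.04 and 0.20 in those 6 classes. The calls of the 4 lists in these classes were C1qa, C1qb and C1qc in dendritic cells and Apoe in tumor cells (2.20 ± 0.25, adjusted p 0.00433).

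Between T cell classes the exhaustion genes and the interferon-gamma route split. In CD8 against conventional CD4 T cells, where 12.7% of all genes were called, 3 of 16 exhaustion genes were called higher, Eomes (3.202), Cd160 (2.85) and Cd244 (2.55), and 9 lower, led by Cd200 (−2.68), Btla (−2.67) and Slamf6 (−1.65), with a median of −0.56 beside 0.02. In regulatory against conventional CD4 T cells, where 13.2% of all genes were called, 3 of 13 were higher, led by Klrg1 (5.82), and 6 lower, led by Tcf7 (−2.86) and Nr4a2 (−2.36), with a median of −0.65 beside −0.01. Tcf7 encodes TCF-1, which maintains stem-like T cells, and the Nr4a genes encode nuclear receptors induced by antigen.

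Ifng itself, the cytokine that induces Cd274, stood at 592, 253, 316 and 375 CPM in CD8 T cells, 1332, 2031, 1847 and 1680 CPM in conventional CD4 T cells and 61.9, 62.5, 12.2 and 87.6 CPM in regulatory T cells. Conventional CD4 T cells thus had the highest level among T cells in each library. The log2 difference of Ifng was −4.90 in regulatory against conventional CD4 T cells and −2.12 in CD8 against conventional CD4 T cells. Of the route, 3 genes were higher and 3 lower of 8 tested in the former contrast (13.2% of all genes called), and 1 was higher and 3 lower of 8 in the latter (12.7%).

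Among binding partners, regulatory T cells held less Cd226 (−1.95) and Cd96 (−1.95), the competitors of TIGIT for PVR, than conventional CD4 T cells. Of 12 tested, 0 were higher and 3 lower (13.2% of all genes called), with a median of 0.23. CD8 T cells held more of Cd226 (0.86), Cd96 (0.78) and Selplg (0.90) and less Cd28 (−0.43) than conventional CD4 T cells. Of 12, 3 were higher and 1 lower (12.7% of all genes called), with a median of 0.41. NK cells against CD8 T cells (14% of all genes called) gave 0 higher and 4 lower of 11, led by Cd28 (−2.32), and 7 higher and 3 lower of 15 exhaustion genes. Klrg1 (4.51) and Eomes (3.93) led the higher, and among the lower Irf4, at 20.6, 18.8, 20.5 and 23.8 CPM in CD8 T cells, had no UMI in NK cells. Regulatory against CD8 T cells (13.8% of all genes called) gave 1 higher and 4 lower of 12 binding partners, among them Cd80 (1.52) and Cd226 (−2.83), with a median of −0.08.

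Between myeloid classes, dendritic cells differed from macrophages in the B7 ligands of CTLA-4 and CD28 among other partners. They held more Cd80 (1.73), Cd86 (0.63), Selplg (1.86) and Nectin2 (1.13) and less Lgals3 (−1.32), as 4 higher and 1 lower of 11 tested, where 48.8% of all genes were called, with a median of 0.17 beside 0.01. The share of called partners was thus no larger than that of all genes. Of the route to PD-L1, Jak2 (1.61), Irf1 (1.05) and Stat3 (0.83) were higher in dendritic cells, and 2 of 8 were lower. Microglia against macrophages, where 34.3% of all genes were called, gave 3 higher and 6 lower of 12 binding partners, with Selplg (1.40), Rgmb (1.38) and Nectin2 (0.94) higher and Lgals3 (−0.79), Cd80 (−0.75) and Pvr (−0.73) lower. Of the route, 1 gene was higher and 4 lower of 8 in microglia, led by Jak2 (−0.75), with a median of −0.24 beside 0.00.

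Tumor cells against macrophages, where 71.1% of all genes were called, gave 4 higher and 8 lower of 12 binding partners. Igsf11, a ligand of VISTA, was among the higher (5.81), while Cd86 (−8.29), Cd80 (−7.02) and Selplg (−5.84) were among the lower. Of the route to PD-L1, Irf1 (1.82) and Socs1 (1.26) were higher and 6 of 8 lower, led by Ifngr2 (−2.97), with a median of −1.34 beside 0.03. All 9 abundant myeloid transcripts were lower, with a median of −8.13.

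Genes with the most similar pattern were found by Pearson's r of log2(CPM + 1) over 32 sums of 8 classes in 4 libraries, among 7682 genes, which is a description since sums of a library share its depth. Pdcd1 was closest to Gm8369 (0.978), Cd3e (0.975) and Cd3d (0.970), of which the latter pair belong to the T cell panel, and Ctla4 to Icos (0.971), Dkkl1 (0.968) and Lat (0.960). Lag3 was closest to AU020206 (0.891), Il16 (0.869) and Grap (0.867), Havcr2 to Slfn1 (0.913), Fam46c (0.882) and Gdi2 (0.863), and Tigit to Atg16l2 (0.929), Flt3l (0.904) and Nt5e (0.898). Vsir was closest to Zc3h12a (0.943), Glmp (0.929) and Fermt3 (0.925).

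The ligands had neighbours of other kinds. Cd274 was closest to Pgap2 (0.952), Cd74 (0.927) and Atox1 (0.924), of which Cd74 encodes the invariant chain of MHC class II. Pdcd1lg2 was closest to Traf1 (0.974), Dusp5 (0.959) and Gpr132 (0.949), and Lgals9 to Tgfbr1 (0.897), Hebp1 (0.887) and Sgk1 (0.877).

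In the mouse genome (GRCm38, GENCODE M21) the members lie on 6 chromosomes. Both PD-1 ligands are neighbours on the plus strand, Cd274 at chr19:29367455-29388095 and Pdcd1lg2 at chr19:29410919-29471161. The latter starts 22824 bases past the end of the former. Ctla4 (chr1:60887000-60915832, plus) and Pdcd1 (chr1:94038305-94052553, minus) share chromosome 1, and Havcr2 (chr11:46454935-46481255, plus) and Lgals9 (chr11:78962974-78984946, minus) share chromosome 11. Lag3 lies at chr6:124904361-124911705 (minus), Vsir at chr10:60346851-60372684 (plus) and Tigit at chr16:43648867-43664146 (minus). Vsir overlaps Cdh23, and Pdcd1lg2 overlaps A930007I19Rik, each on the opposite strand. Cd274 overlaps AC119228.1 on the opposite strand and Ctla4 overlaps the pseudogene Rpl18-ps1 on the same strand, and neither is counted in the mix. The strand of counting is not stated, so reads of an overlap cannot be told apart.

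Promoter windows of 300 bases (RefSeq, GRCm38.p6) matched 8 of the 9 members, all but Lag3. Among the 8 classes the adjacent genes Cd274 and Pdcd1lg2 had their highest mean in dendritic cells, and Lgals9 alone held a searched interferon motif. The windows of these 3 ligands are therefore shown. They lie at chr19:29367188-29367487 (plus), chr19:29410669-29410968 (plus) and chr11:78984875-78985174 (minus). Capitals mark matches, on either strand, of GAAANNGAAA, the interferon-stimulated element, which is found in 3.44% of 32851 windows of that length.
Cd274: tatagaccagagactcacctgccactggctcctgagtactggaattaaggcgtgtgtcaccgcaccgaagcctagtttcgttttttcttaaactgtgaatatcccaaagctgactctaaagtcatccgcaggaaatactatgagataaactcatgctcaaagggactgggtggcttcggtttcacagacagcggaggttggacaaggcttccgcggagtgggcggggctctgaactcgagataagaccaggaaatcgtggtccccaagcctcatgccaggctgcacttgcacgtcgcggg
Pdcd1lg2: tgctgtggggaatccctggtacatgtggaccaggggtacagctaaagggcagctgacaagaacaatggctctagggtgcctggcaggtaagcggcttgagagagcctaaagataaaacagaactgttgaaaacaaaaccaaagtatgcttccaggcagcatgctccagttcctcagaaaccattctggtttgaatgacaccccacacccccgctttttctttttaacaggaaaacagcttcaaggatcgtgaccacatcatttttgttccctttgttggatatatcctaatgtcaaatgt
Lgals9: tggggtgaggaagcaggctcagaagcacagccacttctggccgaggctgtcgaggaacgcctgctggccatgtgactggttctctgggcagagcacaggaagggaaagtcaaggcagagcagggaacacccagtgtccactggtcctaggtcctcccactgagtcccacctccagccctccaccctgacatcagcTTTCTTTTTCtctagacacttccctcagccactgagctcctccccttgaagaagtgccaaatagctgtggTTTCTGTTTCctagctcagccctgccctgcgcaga
Of the 8 windows, that of Lgals9 held the element. No member window held TTCNNNGAA, the gamma-activated site, found in 8.30% of all windows, and those of Lgals9 and Pdcd1lg2 held GGGNNNNNCC, an NF-kB pattern found in 50.8%. A match is a description of letters, and a lack of it says nothing of the factor.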

How the data were processed

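Single cells of GL261 gliomas with shNC or shSELP cells were profiled by droplet sequencing in 6 libraries. The values are deposited counts: the authors aligned reads to mm10 with CellRanger 1.3, counted UMIs per gene and cell, and state that cells under 500 genes or over 10% mitochondrial transcripts were removed and equal numbers drawn. The deposited cells were filtered again at 500 genes and 10% mitochondrial UMIs, which kept 8726 of 9172 cells of the mix and 5535 of 5724 CD11b+ cells; 0 cell columns matched no library. UMIs per library ranged from 17323095 to 25512125 in the mix and from 11406051 to 12532788 in the CD11b+ experiment.

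A cell joined the lineage with most detected panel genes (at least 2, and strictly most), and T cells were divided by Cd8a or Cd8b1, Cd4 and Foxp3. NK cells with at least 2 genes of the T cell panel and tumor cells with a Ptprc UMI were left out. Clusters (Seurat 5.3.0, with 2000 variable genes, 12 components, resolution 0.8, 21 clusters) served alternatives and the descriptions by cluster. Doublet scores (Scrublet in scanpy 1.11.5, expected rate 0.05, 76 calls in the mix, 1 in the CD11b+ experiment) served alternatives alone. UMIs summed per library and class were fitted with edgeR 4.0.16 (TMM, quasi-likelihood F test; R 4.3.3, limma 3.58.1), and by DESeq2 1.42.0 as an alternative. Class comparisons had library as a block. SE was derived from the F statistic. The code was tested on simulated data. Other steps used Python 3.11.15, numpy 2.4.6, scipy 1.17.1, pandas 2.3.3 and matplotlib 3.10.9.

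Every member has its level in each class and library, and fold changes are given for members past the threshold or at an unadjusted p under 0.05 (as a bound or a ratio of counts where a class held 3 UMIs or fewer), with others where a group comparison is described. From each list, genes past the threshold are named where the text describes them, up to the 6 largest changes, and per member the 3 genes most similar in pattern with a mean of at least 10 CPM. The log2 CPM had a pseudocount of 1, and a floor of 3 counts limits folds against 0. The split of dendritic cells, the fits by microglial cluster, and the alternatives without lymphoid cells holding a C1q UMI or without the neutrophil-like cluster of macrophages were chosen after seeing the data. The members and lists were chosen with earlier results of these data known.

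Alternatives were a stricter gate (3 panel genes, lead of 2), cells thinned to 2000 or 1000 UMIs, doublet calls or the highest 5% of scores left out, cells outside clusters of their lineage left out, DESeq2, no filter on low counts, library as a pair, each library left out, and at most 5% mitochondrial UMIs, with TMM scaling and the stricter gate for CD11b+ ratios. The CD11b+ libraries have no replicate and were not tested. The study's methods and the labels differ in the collection day of both experiments and in the kit version. Sequencing entries of a library were pooled in the deposited tables. For 1 panel gene and 1 list gene values are not reported here.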

Additional observations from a re-analysis of the deposited data

Results flagged for a closer look

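For 3 genes, every shSELP library lay above every shNC library in 1 class and below in another, and the difference between the classes was not tested for any of them. Ctla4 had a log2 fold change of 0.40 in CD8 T cells and −0.47 in dendritic cells. Havcr2 had 0.58 in regulatory T cells, −0.60 in dendritic cells and −0.22 in macrophages. Pdcd1 had 0.19 in CD8 T cells and −0.26 in regulatory T cells. No fold change among these passed edgeR's threshold after adjustment, with 2 libraries in each group. Groups did not overlap in 41.8% of all genes tested in CD8 T cells, 33.5% in regulatory T cells, 35.4% in dendritic cells and 43.4% in macrophages.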

How the results depend on the processing

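Across the alternatives, 575 fold changes of members kept direction and side of the threshold, 41 gained the call, 41 lost it and 2 turned, while 184 counts of members called and 127 counts of genes called stayed within 1.5 times and 37 and 94 did not. Where a library was left out, the lone library of its group was assumed to vary like the others. The limit of 5% mitochondrial UMIs changed no value, since the highest kept cell lay under it. NK cells had no cluster of their own, no member could be tested in thinned NK cells, and interactions were fitted under 7 alternatives. Scrublet's calls in the CD11b+ experiment were too few to use. In macrophages and microglia no CD11b+ ratio moved beyond its interval. In dendritic cells that of Vsir, from 1 UMI (labelled shSELP) and 2 UMIs (shNC), fell to 0 under the stricter gate. Havcr2 had no ratio there under that gate, with 0 UMIs in shNC. Causes of the changes were not tested.

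Genes called by edgeR, shSELP against shNC, changed as follows. In CD8 T cells 0 became 3 with the stricter gate, 19 in thinned cells, 3 without doublet calls, 2 without the highest doublet scores, 3 without cells outside their clusters, 48 without cells holding C1q, 12 with DESeq2, 224 with no filter on low counts and 3 to 298 with a library left out. In conventional CD4 T cells 0 became 3 with the stricter gate, 66 with no filter and 2 to 91 with a library left out. In regulatory T cells 0 became 42 with no filter and 0 to 26 with a library left out. In NK cells 0 became 3 without cells holding C1q, 19 with no filter and 0 to 34 with a library left out.

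In dendritic cells 3 genes called became 0 with the stricter gate, 0 without the highest doublet scores, 0 without cells outside their clusters, 6 with DESeq2, 56 with no filter and 9 to 277 with a library left out. In macrophages 22 became 51 with the stricter gate, 4 in thinned cells, 37 without the highest doublet scores, 38 without cells outside their clusters, 0 in macrophages without the neutrophil-like cluster, 81 with DESeq2, 507 with no filter and 3 to 106 with a library left out. In microglia 225 became 348 without the highest doublet scores, 29 without cells outside their clusters, 4 in cluster 10, 18 in the other clusters, 926 with no filter and 75 to 663 with a library left out. In tumor cells 211 became 4 with the stricter gate, 34 in thinned cells, 9 without the highest doublet scores, 21 without cells outside their clusters, 1040 with no filter and 194 to 745 with a library left out.

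Members called changed less. In CD8 T cells 0 became 1 without cells holding C1q, 1 with no filter and 0 to 1 with a library left out, and in dendritic cells 0 to 2 with a library left out. In macrophages 0 became 1 with no filter and 0 to 1 with a library left out. In microglia 1 became 0 with the stricter gate, 0 without doublet calls, 0 without cells outside their clusters, 0 in cluster 10, 0 in the other clusters, 0 with DESeq2, 2 without the highest doublet scores, 2 with no filter and 0 to 2 with a library left out. The fold change of Vsir turned in thinned cells, to −0.014 in CD8 T cells and −0.19 in regulatory T cells.

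Between classes, members called in regulatory against conventional CD4 T cells went from 5 to 2 in thinned cells, 3 without cells holding C1q and 2 with DESeq2, and genes from 728 to 346, 403 and 334. In CD8 against conventional CD4 T cells members went from 1 to 0 with the stricter gate, 2 without cells holding C1q, 0 with DESeq2, 2 with no filter and 0 to 2 with a library left out. Genes there went from 1042 to 523 in thinned cells, 585 with DESeq2 and 481 to 1244 with a library left out. In regulatory against CD8 T cells genes went from 982 to 502 in thinned cells, 614 without cells holding C1q and 551 to 989 with a library left out. In NK against CD8 T cells genes went from 959 to 401 in thinned cells and 598 without cells holding C1q, and members from 4 to 7 without doublet calls and 7 without the highest scores.

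Thinned cells also lowered genes called in dendritic cells against macrophages from 4446 to 2299, in microglia against macrophages from 3358 to 1647 (members from 5 to 3) and in tumor cells against macrophages from 7999 to 4146. For the interaction of microglia with macrophages, genes went from 159 to 49 with DESeq2, 521 with no filter and 91 to 473 with a library left out, and members from 0 to 2 with no filter and 0 to 2 with a library left out. For the interaction of CD8 with conventional CD4 T cells, genes went from 0 to 28 with no filter and 6 to 136 with a library left out.

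With the library number as a replicate block (paired fits), genes called were 133 in CD8 T cells, 15 in conventional CD4 T cells, 1 in regulatory T cells, 1 in NK cells, 27 in dendritic cells, 69 in macrophages and 491 in tumor cells, and members called were 1 in CD8 T cells and 0 in microglia. Deviations of same-numbered libraries from their group means correlated over genes by −0.05, 0.12, 0.14, 0.20, 0.01, −0.09, −0.02 and −0.02 in CD8, conventional CD4 and regulatory T cells, NK cells, dendritic cells, macrophages, microglia and tumor cells. No label states that libraries of the same number belong together.

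Shares of cells with a UMI at 1000 UMIs per cell were 27.9% for Pdcd1 in CD8 T cells, 12.1% for Lag3 in CD8 T cells, 6.955% for Lag3 and 19.5% for Vsir in microglia, 21.9% and 29.8% for Cd274 in macrophages and dendritic cells and 18.7% for Lgals9 in microglia. Without thinning they were 76.1% for Pdcd1 and 50.4% for Lag3 in CD8 T cells, 93.2% for Ctla4 in regulatory T cells, 45.7% for Lag3, 75.3% for Vsir and 76.7% for Lgals9 in microglia, and 81.9% and 80.4% for Cd274 in macrophages and dendritic cells.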
